A study of Mus musculus with 4 samples.

Results

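The 6 mouse Iroquois homeobox genes, *Irx1* to *Irx6*, were followed in single-cell RNA sequencing of hearts at E10.5. They were taken by symbol from the 32285 genes of the count tables, where each symbol stood for 1 gene identifier. The family was chosen by the level of *Irx5*, which had been seen to lead the chamber endocardium in these cells, so levels by cell type are given as descriptions, without a test. The whole cardiogenic region was dissected, dissociated and profiled by the 10x droplet method, in which each captured transcript carries a unique molecular identifier (UMI) that is counted once. Control libraries 5 and 7 came from embryos with floxed *Tie2* alleles (Tie2fl/fl) and no Cre by their labels, and *Tie2-cko* libraries 6 and 8 from embryos labelled Nfatcre-Tie2flfl. In the latter a Cre knocked into *Nfatc1*, a gene of the endocardium, removes *Tie2*, which has the gene symbol *Tek*, so that cells outside that lineage keep the gene. The methods place matched libraries of both genotypes in a shared litter and sequencing lane, and no source used here says which libraries match. The methods describe as many hearts per genotype and stage as there are libraries of it, from a shared litter. No source used here ties a library to a single heart, so the spread between libraries may be technical in part.

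The 4 libraries held between 169361996 and 259775540 UMIs, and 33419 cells were kept, with a median of 14878 to 25875 UMIs per kept cell. Between 29 and 62 barcodes were shared by any pair of libraries. Libraries 5 and 6 stood apart from libraries 7 and 8 in the tissue they held. Of the clusters with markers of lung or foregut epithelium, that led by *Wnt7b* held 80 and 77 cells in libraries 5 and 6 and 0 and 1 cells in libraries 7 and 8, and that led by *Nepn* held 168 and 175 against 0 and 4. Cell types were named from marker genes, with the 6 *Irx* genes left out of the clustering. The labels were checked by *Tek* in chamber endocardial cells (EdCs), with 84.9 and 98.9 CPM (UMIs per 1000000 summed UMIs, scaled by the TMM method) in the control libraries and 15 and 18.2 CPM in the *Tie2-cko* libraries.

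Iroquois proteins are transcription factors with a homeodomain of the TALE class, which has an extended loop between its first helices, and their genes lie in a pair of genomic clusters that arose by duplication. In the developing heart, IRX4 is known for its restriction to the ventricles, IRX3 for its role in the trabeculae and the fast conduction system, and IRX5 for its place in the endocardium and in the repolarization gradient of the ventricular wall. IRX1 and IRX2 are also known from lung epithelium and from the ventricular septum.

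On GRCm38, chromosome 13 carries *Irx1* (71957921 to 71963723, reverse strand), *Irx2* (72628820 to 72634198, forward strand) and *Irx4* (73260479 to 73269608, forward strand), which form the IrxA cluster. Chromosome 8 carries *Irx3* (91798525 to 91802067, reverse strand), *Irx5* (92357625 to 92376286, forward strand) and *Irx6* (92674288 to 92680956, forward strand), which form the IrxB cluster. All 6 are protein-coding in GENCODE M21. The stretch of coding sequence for the DNA-contacting helix of the homeodomain is shown because it is nearly identical among the members. It spans 14 codons that read the same amino acids in each gene, and capitals mark the bases that differ from *Irx5*.
Irx5: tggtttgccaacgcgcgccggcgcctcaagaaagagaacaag
Irx6: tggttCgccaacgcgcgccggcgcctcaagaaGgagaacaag
Irx3: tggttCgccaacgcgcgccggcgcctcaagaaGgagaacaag
Irx4: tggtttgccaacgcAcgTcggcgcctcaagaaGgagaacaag
Irx1: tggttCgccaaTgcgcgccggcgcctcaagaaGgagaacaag
Irx2: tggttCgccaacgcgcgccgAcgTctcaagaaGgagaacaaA
The *Irx5* stretch lies in exon 2 of 5, at chr8:92359774-92359815 on the forward strand, and the *Irx6* stretch in exon 4 of 6, at chr8:92677383-92677424 on the forward strand. Those of *Irx3* and *Irx1* lie in exon 2 of 4, at chr8:91800496-91800537 and chr13:71959992-71960033, both on the reverse strand. The *Irx2* stretch lies in exon 2 of 5, at chr13:72630811-72630852, and the *Irx4* stretch in exon 5 of 6, at chr13:73267670-73267711, both on the forward strand. *Irx3* and *Irx6* were identical over these 42 bases, whereas *Irx2* differed from *Irx5* at 5 of them. A fixed window of 180 bases was taken within the homeobox and does not span all of it. Over this window, *Irx5* shared 90.6% of bases with *Irx2*, 87.8% with *Irx3* and with *Irx6*, 86.1% with *Irx4* and 85.0% with *Irx1*. Translated, the 60 codons of *Irx2* and *Irx5* gave identical residues (100%), and those of *Irx5* and *Irx6* were alike at 88.3%.

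Within the heart, *Irx5* marked the chamber EdCs, the endocardium that lines the chambers. A level is the number of UMIs among 10000 of a cell, as the mean of a library's cells. In chamber EdCs, *Irx5* stood at 2.71 in control library 5, 1.78 in control library 7, 3.02 in *Tie2-cko* library 6 and 1.70 in *Tie2-cko* library 8 (379, 594, 138 and 458 cells). The mean was 2.31 ± 0.662 (SD, n = 4 libraries). The lowest of these values was above the highest *Irx5* level in any other cell type compared (clusters of low UMI number left out), 0.659 in the epithelial cluster led by *Wnt7b*. In cushion EdCs, which line the endocardial cushions, *Irx5* stood at 0.0629, 0.0466, 0.0767 and 0.0309 in libraries 5, 7, 6 and 8. The level in chamber EdCs was 38.3 to 55.2 times that in cushion EdCs within a library. Vascular endothelial cells had a mean level of 0.0739 (range 0.0337 to 0.112), which overlapped with that of cushion EdCs. The cells called chamber EdCs were checked by *Emcn*, which had levels of 4.73 to 6.62 there and 0.968 to 1.08 in cushion EdCs, and by *Npr3*, with 1.56 to 2.18 against 0.503 to 0.635. These markers named the clusters. UMIs of other cell types were present among the chamber EdCs, with *Hbb-y* of red blood cells at 6.82 to 44.7 and *Myl2* of ventricular cardiomyocytes (CMs) at 1.47 to 3.12, and their part in the low *Irx* levels was not tested.

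Outside the clusters of low UMI number, *Irx6*, the neighbour of *Irx5* in the IrxB cluster, was detected almost only in chamber EdCs. Its level there was 0.334 and 0.145 in the controls, libraries 5 and 7, against 0.313 and 0.155 in *Tie2-cko* libraries 6 and 8, with a mean of 0.237 ± 0.101 (SD, n = 4). The next cell type in order was an epithelial cluster led by *Nepn*, at 0.00594, and cushion EdCs followed with 0.00592. Of the low-UMI clusters left out of this order, that led by *AY036118* and *Mhrt* had *Irx6* at 0.0383 over all its cells. The 4 chamber EdC samples held 254, 147, 170 and 103 *Irx6* UMIs in libraries 5, 7, 6 and 8, and the 4 cushion EdC samples held 2, 1, 5 and 1. *Irx3*, the third gene of the cluster, had levels of 0.0699, 0.0447, 0.0288 and 0.0367 in the chamber EdCs of libraries 5, 7, 6 and 8, below those of ventricular CMs in every library.

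**Figure D1:**
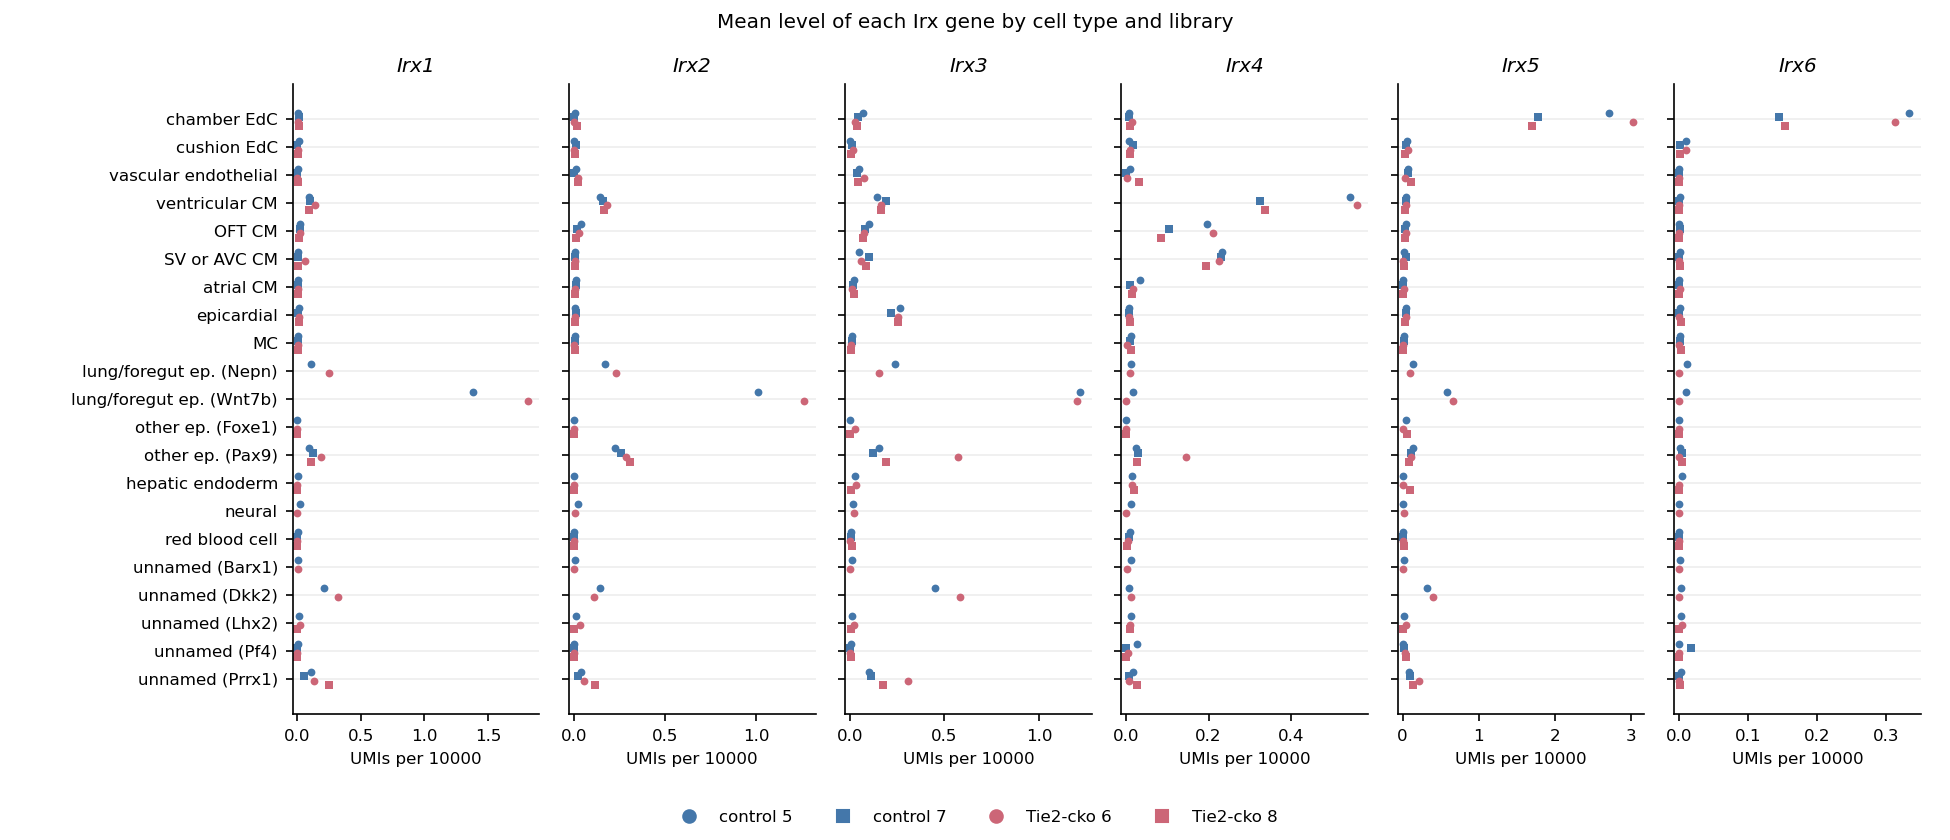
Mean level of each gene in UMIs per 10000 (horizontal axis, linear, with its own scale in each panel) by cell type (rows) for each library with at least 20 cells of the type, circles for libraries 5 and 6, squares for libraries 7 and 8, blue for control and red for *Tie2-cko*. *Irx5* and *Irx6* are highest in chamber EdCs, *Irx4* in ventricular CMs and *Irx1*, *Irx2* and *Irx3* in the epithelial cluster led by *Wnt7b*, which only libraries 5 and 6 held in number. SV, sinus venosus; AVC, atrioventricular canal; OFT, outflow tract; MC, mesenchymal cell; ep., epithelium; names in parentheses are leading genes.

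To compare shares of positive cells at 1 depth, each cell was thinned to 5500 UMIs. An *Irx5* UMI was then found in 64.9% (233 of 359) of chamber EdCs in control library 5, 55.1% (303 of 550) in control library 7, 69.3% (88 of 127) in *Tie2-cko* library 6 and 49.3% (210 of 426) in *Tie2-cko* library 8. The exact 95% binomial intervals ran from 59.7 to 69.8%, 50.8 to 59.3%, 60.5 to 77.2% and 44.5 to 54.2%, and cover counting error only. Red blood cells, which should lack *Irx5*, held a UMI in 0.207 to 1.75% of cells. Their median depth was 22811.5 to 60281 UMIs before thinning, against 11032 to 27943.5 in chamber EdCs, and cushion EdCs reached 1.42 to 3.57%. Without thinning, 81.5%, 72.2%, 87% and 64.2% of chamber EdCs held an *Irx5* UMI in libraries 5, 7, 6 and 8. Thinning left out 20, 44, 11 and 32 shallower cells.

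*Irx6* was found in 15.6%, 8.55%, 15% and 7.75% of thinned chamber EdCs in libraries 5, 7, 6 and 8, and in at most 0.164% of red blood cells. Among the 1462 thinned chamber EdCs, 834 held an *Irx5* UMI, 155 an *Irx6* UMI and 105 both. *Irx6* was present in 12.6% of cells with *Irx5* and in 7.96% of cells without it. By library these shares were 15.9% and 15.1% in library 5, 9.24% and 7.69% in library 7, 15.9% and 12.8% in library 6, and 12.4% and 3.24% in library 8. No test was made of this overlap, as cells of 1 library are not replicates. A UMI of no *Irx* gene was found in 38.0% of these cells, of 1 gene in 53.1%, of 2 genes in 8.62% and of 3 genes in 0.274%.

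**Figure D2:**
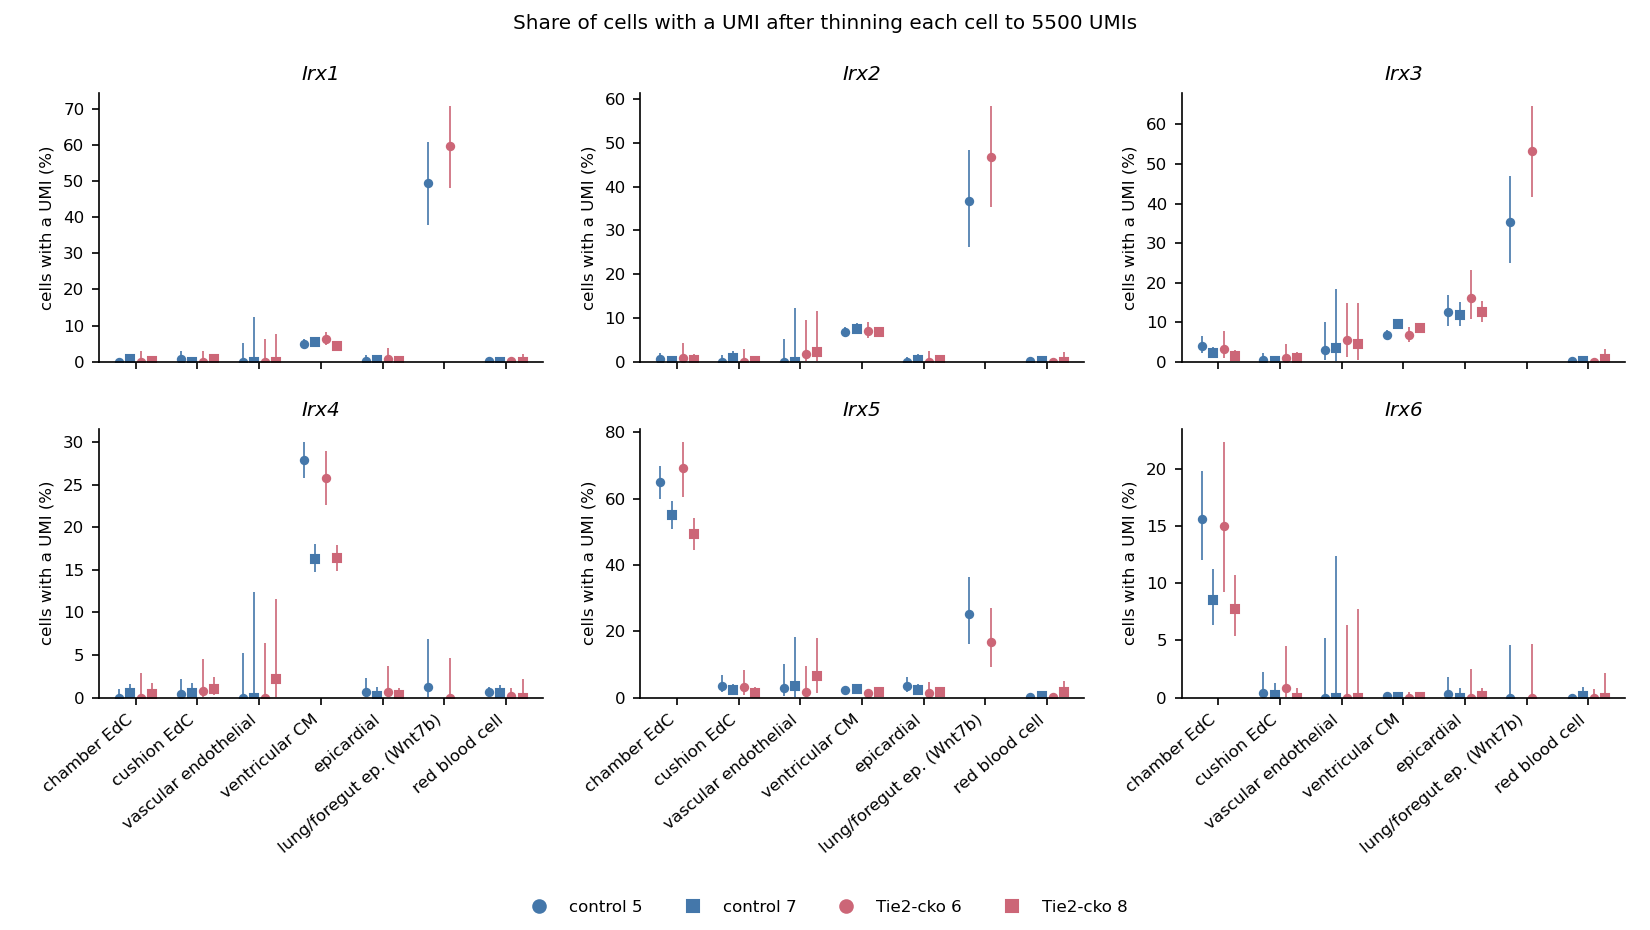
Share of cells with a UMI of each gene (vertical axis, percent) in 7 cell types after thinning to 5500 UMIs, 1 point per library with at least 20 such cells, and bars for exact 95% binomial intervals. *Irx5* was found in 49.3 to 69.3% of chamber EdCs and *Irx4* in 16.3 to 27.9% of ventricular CMs, and red blood cells were at or below 1.75% for both.

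*Irx4* was highest in ventricular CMs, and its range there did not overlap with that of any other cell type. Its level there was 0.544 in control library 5, 0.325 in control library 7, 0.560 in *Tie2-cko* library 6 and 0.338 in *Tie2-cko* library 8, with a mean of 0.442 ± 0.128 (SD, n = 4). CMs of the sinus venosus or atrioventricular canal followed with 0.220 (0.193 to 0.232) and outflow tract CMs with 0.149 (0.0855 to 0.211), and these last ranges overlapped. In atrial CMs the level was 0.0185. After thinning, an *Irx4* UMI was found in 27.9%, 16.3%, 25.7% and 16.4% of ventricular CMs in libraries 5, 7, 6 and 8, against 0 to 0.619% of red blood cells. None of the 171 thinned red blood cells of library 8 held one, for which the upper bound of the exact 95% interval is 2.13%. In chamber EdCs the mean *Irx4* share was 0.273% in control and 0.235% in *Tie2-cko* libraries.

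*Irx1*, *Irx2* and *Irx3* were found in ventricular CMs too, at levels that varied within them. *Irx1* had a mean level of 0.107 (0.0934 to 0.136), *Irx2* of 0.162 (0.143 to 0.181) and *Irx3* of 0.166 (0.144 to 0.188). At a finer resolution of the clustering, ventricular CMs formed 3 clusters. The first, with 316, 386, 189 and 483 cells in libraries 5, 7, 6 and 8, was led by *Nppa*, *Cited1* and *Nppb*, natriuretic peptide and other genes of the trabeculae, the muscular ridges inside the ventricle. *Bmp10*, a growth factor of trabecular CMs, had a level of 0.665 in it and of 0.189 and 0.0955 in the others, led by *Myl2* and *Myh7* and by *Myl2* and *Pln*. *Hey2*, a factor of the compact wall, was lower in it, with 0.178 against 0.417 and 0.412. Of the other compact markers listed, *Tbx20* (0.469 against 0.795 and 0.644) and *Mycn* (0.154 against 0.323 and 0.360) were lower in it too. *Hopx* went the other way, with 3.04 against 1.77 and 1.96. Of the other trabecular markers listed, *Gja5* was higher in it (0.245 against 0.116 and 0.115), and *Slc5a1* was found in none of the clusters.

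*Irx3* was 2.32 to 2.63 times higher in the cluster led by *Nppa* than in the mean of the other 2 within a library. Its levels there were 0.298 to 0.357, against 0.129 to 0.184 and 0.0973 to 0.127. *Irx2* was 1.91 to 2.72 times, *Irx1* 1.69 to 2.11 times and *Irx5* 2.05 to 5.57 times higher. *Irx4* was even across the clusters, at 0.946 to 1.02 times. The ranges of *Irx1*, *Irx2*, *Irx3* and *Irx5* in the cluster led by *Nppa* did not overlap with those in either of the others, and those of *Irx4* did. The clusters were made from these cells, so the ratios are descriptions. *Irx5* had a mean level of 0.0888 in the cluster led by *Nppa*, against 2.31 in chamber EdCs. *Tek* UMIs were present in the summed ventricular CMs, at 0.0574 to 0.596 CPM. The part of UMIs from chamber EdCs in the *Irx5* levels of ventricular CMs was not tested. In thinned ventricular CMs, *Irx2* was present in 22.8% of cells with *Irx1* (78 of 342) and in 6.2% of cells without it. By library it was present in 21.8%, 16.8%, 29.2% and 27% of cells with *Irx1* in libraries 5, 7, 6 and 8, against 5.95%, 6.97%, 5.6% and 5.93% of those without. *Irx4* was present in 29.9%, 17.3%, 19.6% and 17.3% of cells with *Irx3* in libraries 5, 7, 6 and 8, against 27.7%, 16.2%, 26.2% and 16.3% of cells without it.

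**Figure D3:**
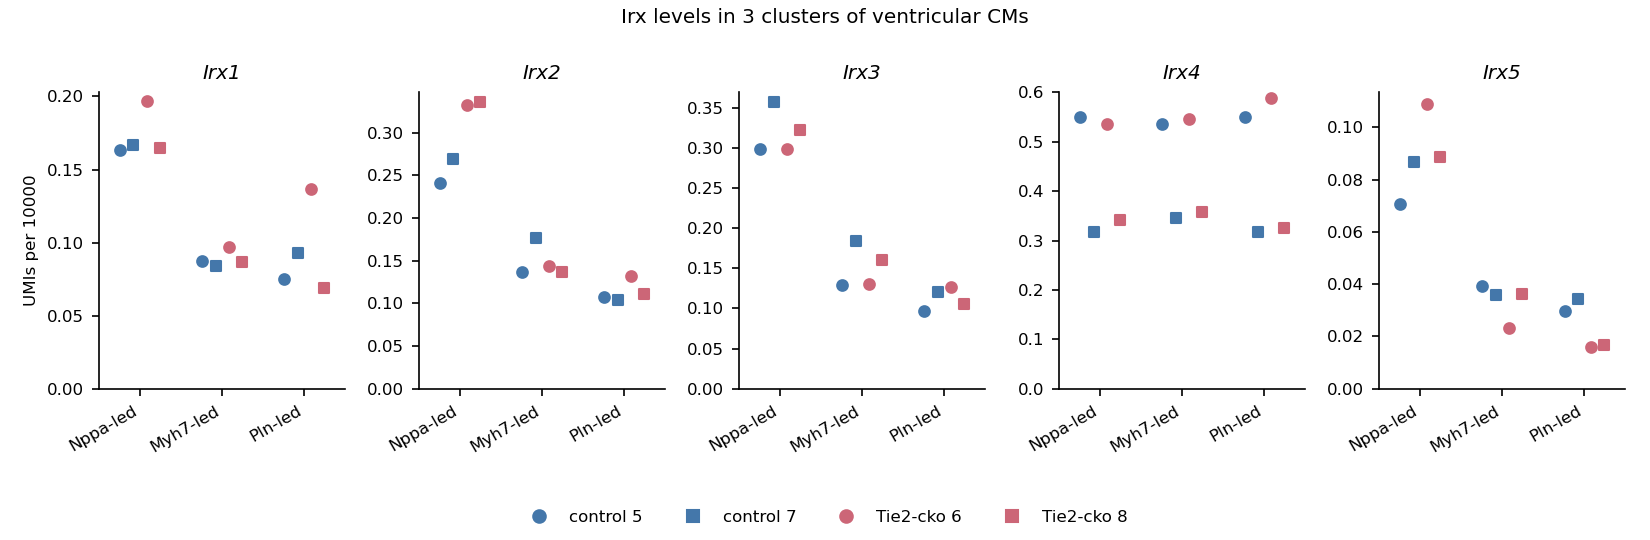
Levels of *Irx1* to *Irx5* (vertical axes, UMIs per 10000, from 0) in 3 clusters of ventricular CMs named by a leading gene, with 1 point per library (colours and shapes by library as in the key). *Irx1*, *Irx2*, *Irx3* and *Irx5* are higher in the *Nppa*-led cluster in all 4 libraries, and *Irx4* is even across clusters but splits into libraries 5 and 6 above libraries 7 and 8. Of all genes tested in summed ventricular CMs, 33.4% had this order of libraries.

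Outside the myocardium and endocardium, the epicardium carried *Irx3*. The epicardial level was 0.267 and 0.219 in the controls, libraries 5 and 7, against 0.254 and 0.253 in *Tie2-cko* libraries 6 and 8. A UMI was found in 12.5%, 11.8%, 16.2% and 12.6% of thinned epicardial cells in libraries 5, 7, 6 and 8. *Irx5* was found in 1.35 to 3.54% of them, and *Irx1*, *Irx2*, *Irx4* and *Irx6* each in at most 0.676%.

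The highest levels of *Irx1*, *Irx2* and *Irx3* were found in epithelium. The cluster led by *Wnt7b* carried *Nkx2-1*, a factor of the lung and thyroid, at 2.45 and 2.56 in libraries 5 and 6, where it held 80 and 77 cells. It held 0 cells in library 7 and 1 in library 8. *Irx1* stood at 1.38 and 1.81, *Irx2* at 1.01 and 1.26, *Irx3* at 1.22 and 1.2 and *Irx5* at 0.589 and 0.659 in libraries 5 and 6. *Irx4* was found in 1 UMI and *Irx6* in 2 UMIs of library 5, and neither in library 6. Of 157 thinned cells, 24 (15.3%) held no UMI of an *Irx* gene, 51 held UMIs of 1 gene, 47 of 2, 30 of 3 and 5 of 4. *Irx2* was present in 54.7% of cells with *Irx1* (47 of 86) and in 26.8% of those without it. As libraries 7 and 8 held next to none of these cells, each genotype is represented by 1 library and no comparison between genotypes was made of them alone.

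The epithelial cluster led by *Pax9* and *Sfn* was held by all libraries, with 257, 245, 34 and 320 cells in libraries 5, 7, 6 and 8. *Irx2* had levels of 0.224, 0.261, 0.287 and 0.308 in it. *Irx3* stood at 0.152, 0.120, 0.569 and 0.188, of which the high value came from the 34 cells of library 6. A cluster led by *Dkk2* and *Mab21l2*, left unnamed because markers of another mesenchyme outnumbered its own among its leading genes, carried *Irx3* at 0.451 and 0.584 and *Irx5* at 0.322 and 0.402 in libraries 5 and 6, with 145 and 171 cells. A cluster led by *Prrx1* and *Col9a1*, which met no marker list, carried *Irx1*, *Irx3* and *Irx5* at mean levels of 0.135, 0.173 and 0.134. After thinning, *Irx5* was found in 4.61% and 4.03% of its cells in control libraries 5 and 7, and in 16.1% and 7.14% in *Tie2-cko* libraries 6 and 8. *Irx1* was found in a mean of 3.72% of cells in control and 9.11% in *Tie2-cko* libraries, *Irx2* in 2.2% and 4.4%, and *Irx3* in 5.17% and 10.4%. For these 4 genes both *Tie2-cko* libraries were above both controls, and each gave a two-sided exact permutation p of 0.333, the smallest that 2 against 2 libraries allow. Library 6 held only 62 thinned cells of this cluster. The cluster was not among the 5 cell types fitted over all genes, so the share of all genes with this order is not known there. In the fitted types, 9.78 to 19.9% of genes tested had both *Tie2-cko* libraries above both controls. The order is therefore not read as a difference of these 4 genes. In named MCs, the mesenchymal cells, none of the 6 genes had a mean level above 0.0156. This limit held for the main clustering, with 679, 1206, 286 and 1093 MCs in libraries 5, 7, 6 and 8. With doublets kept, the clusters were made anew and 1096, 1253, 740 and 1216 cells were named MC. Their mean levels were 0.0319 for *Irx1*, 0.0202 for *Irx2*, 0.0604 for *Irx3* and 0.0494 for *Irx5*. At resolution 0.4 with doublets removed, 1078, 1238, 738 and 1207 cells were named MC. The parts of doublets and of cluster naming in these levels were not tested.

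Across the 16 named cell types, the members fell into a few patterns. The likeness was taken as Pearson's r of log2(level + 0.05) over cell types, among genes with a level of at least 0.2 in some type, and is a description, since the types share libraries. *Irx1* was most like *Irx2* (r = 0.977), and *Irx3* was next among the members (r = 0.891). *Irx5* was most like *Irx6* (r = 0.829), followed by *Mal* (0.824) and *Stc1* (0.810). *Irx6* was most like *Acap1* (0.904), *Ctso* (0.879) and *Col23a1* (0.846), which were all highest in chamber EdCs. *Irx4* was most like *Myl2* (0.933), *Pln* (0.919) and *Myh7* (0.910), genes of the contractile apparatus and calcium handling, whereas its r with the other members lay between -0.171 and 0.201. The members most like *Irx3* were *Irx1* and *Irx2* of the other genomic cluster, and its r with *Irx5* was 0.446. Outside the family, *Irx1* was most like *Wnt7b* (0.944) and *Sfta2* (0.914), *Irx2* most like *Gm32585* (0.895) and *Irx3* most like *Palm3* (0.804).

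The question of the genotype comparison was whether the *Irx* genes differed with the loss of *Tie2* from the endocardium. The UMIs of all cells of a type were added up in each library and compared between 2 control and 2 *Tie2-cko* libraries by the quasi-likelihood test of edgeR, and p-values were adjusted over all genes of a cell type after Benjamini and Hochberg. No *Irx* gene passed an adjusted p of 0.05 in any of 16 tests over 5 cell types. *Tek* was the only gene past this threshold in chamber EdCs, where 0.00867% of 11531 genes passed, at a log2 fold change of -2.47 ± 0.17 (standard error) and an adjusted p of 0.00693. The share of genes called was 0.0529% in cushion EdCs, 0% in ventricular CMs and in mesenchyme, and 0.0241% in epithelium, where 6, 0, 0 and 3 genes passed. Those in epithelium were globin genes of red blood cells, as were those in cushion EdCs other than *Mt1*. All of these were lower in *Tie2-cko*, and the part of red blood cell RNA in this was not tested. At an unadjusted p under 0.05 there were 88 genes in ventricular CMs and 135 in mesenchyme, and DESeq2 called 1 and 7 genes there. Of the 16 *Irx* tests, 0 had an unadjusted p under 0.05 with edgeR and 0 were called with DESeq2.

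In chamber EdCs the summed *Irx5* UMIs came to 284 and 198 CPM in the controls, libraries 5 and 7, against 304 and 189 CPM in *Tie2-cko* libraries 6 and 8. The genotypes overlapped, and edgeR gave *Irx5* a log2 fold change of 0.03 with a standard error of 0.25 and an adjusted p of 0.987. *Irx6* came to 35.1 and 16.0 CPM in control and 27.5 and 15.5 CPM in *Tie2-cko* libraries, where edgeR gave a log2 fold change of -0.24 with a standard error of 0.39 and an adjusted p of 0.934. Both differences were smaller than the spread between libraries of 1 genotype. *Irx3* came to 5.67 and 5.54 CPM in control and 4.36 and 3.6 CPM in *Tie2-cko* libraries. It was lower in both *Tie2-cko* libraries, as were 18.1% of all genes tested in chamber EdCs, and did not pass the edgeR test (log2 fold change -0.49 with a standard error of 0.28, and an adjusted p of 0.775). *Irx1*, *Irx2* and *Irx4* were below the filter on low counts there. The share of chamber EdCs with an *Irx5* UMI differed by -0.703 percentage points between *Tie2-cko* (59.3%) and control (60.0%), with a pooled SD of 11.1 points (exact permutation test, two-sided, p = 1, where 2 against 2 libraries allow no p below 0.333).

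*Irx5* was the only member tested in cushion EdCs, with 6.73 and 4.84 CPM in the controls, libraries 5 and 7, against 6.6 and 3.79 CPM in *Tie2-cko* libraries 6 and 8. Its log2 fold change there was -0.19 ± 0.37 (standard error), at an adjusted p of 0.999 by edgeR. *Tek* came to 98.8 and 176 CPM in control and 39.4 and 31.4 CPM in *Tie2-cko* cushion EdCs. At a log2 fold change of -1.97 it was not called by edgeR there. A change of that size could thus be missed in these cells. To compare the genotype effect between chamber and cushion EdCs, a model with a block for each library and an interaction of genotype and cell type was used. The difference of the effects was 0.19 on the log2 scale for *Irx5* (standard error 0.22, adjusted p = 0.897 from edgeR), -1.16 for *Irx6* (standard error 0.93) and -0.97 for *Irx3* (standard error 0.74), and none of them was called. In this comparison 0.217% of 11983 genes were called. A cushion EdC sample held only 1 to 5 *Irx6* UMIs and 2 to 10 *Irx3* UMIs.

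In ventricular CMs, which lie outside the endocardial lineage, *Irx4* came to 55.2 and 33.7 CPM in the controls, libraries 5 and 7, against 55.4 and 34 CPM in *Tie2-cko* libraries 6 and 8. By edgeR its log2 fold change was 0.01 ± 0.30 (standard error), at an adjusted p of 1. Those of *Irx1*, *Irx2* and *Irx3* were 0.08, 0.08 and -0.14, with standard errors of 0.16, 0.13 and 0.17. *Irx5* came to 4.37 and 4.84 CPM in control and 4.16 and 4.06 CPM in *Tie2-cko* libraries, lower in both *Tie2-cko* libraries, as were 8.81% of all genes tested there. Its log2 fold change was -0.16 ± 0.15 (standard error), at an adjusted p of 1 by edgeR. *Irx6* was below the filter on low counts.

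In mesenchyme, only *Irx4* and *Irx5* of the members were tested, at 0.333 to 1.15 CPM and 1.14 to 2.11 CPM. *Tek*, at a log2 fold change of -2.43, was not called in these cells by edgeR. *Irx4* was lower in both *Tie2-cko* libraries there, as were 11.6% of genes, and had an edgeR log2 fold change of -0.63 ± 0.53 (standard error) and an adjusted p of 1. In epithelium, *Irx1* to *Irx5* were tested, and the log2 fold changes lay between -0.69 for *Irx4* (standard error 0.63) and 0.64 for *Irx1* (standard error 0.86). *Irx4* was lower in both *Tie2-cko* libraries, as were 10.3% of genes. Over the 5 cell types, 4 of the 16 tests had both *Tie2-cko* libraries below both control libraries, and 0 had them above. Of all genes tested, 19.9% were above in chamber EdCs, 14.6% in cushion EdCs, 9.78% in ventricular CMs and 12.5% in mesenchyme and in epithelium, and 13.5% were below in cushion EdCs. The make-up of epithelium differed between libraries, with the lung or foregut clusters held almost only by libraries 5 and 6. The cluster led by *Pax9* and *Sfn* gave 257 of 530 epithelial cells in library 5 and 245 of 250 in library 7. In libraries 6 and 8 it gave 34 of 315 and 320 of 383. The standard errors of the members in epithelium ran from 0.35 to 0.86. The 5 tests in epithelium therefore bear little on whether a member differed.

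**Figure D4:**
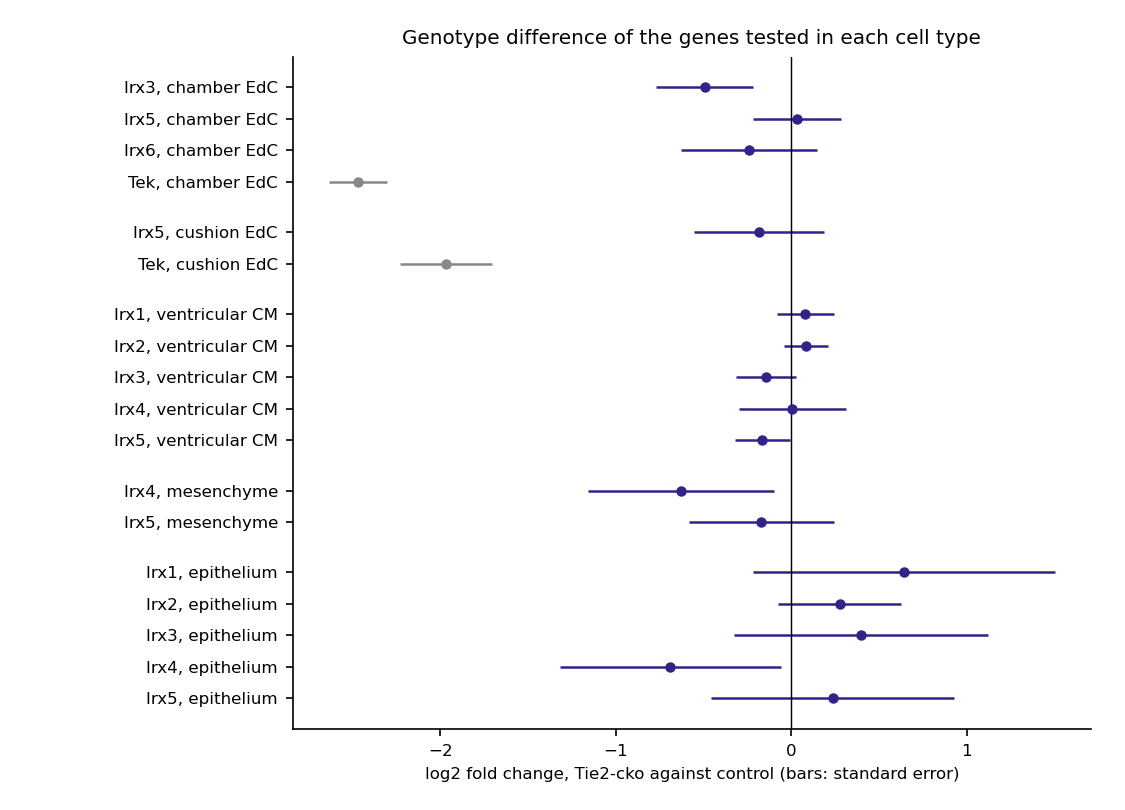
Log2 fold change between *Tie2-cko* and control (horizontal axis) from edgeR for each *Irx* gene that passed the filter on low counts in a cell type, with bars for 1 standard error, and for *Tek* in chamber and cushion EdCs (grey). The *Irx* genes lie between -0.69 and 0.64 and none passed an adjusted p of 0.05, whereas *Tek* lies at -2.47 in chamber EdCs. In cushion EdCs *Tek* lies at -1.97 and did not pass.

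*Irx4*, *Irx5* and *Irx6* were ordered by pairs of libraries that cross the genotypes, as were many other genes. In chamber EdCs both libraries 5 and 6 were above both libraries 7 and 8 for *Irx5* and *Irx6*, as were 22.7% of all genes tested there, with 20.8% on the other side. The ratio of the mean CPM in libraries 5 and 6 to that in libraries 7 and 8 was 1.52 for *Irx5* and 1.99 for *Irx6*. In ventricular CMs the ratio was 1.63 for *Irx4*, and 33.4% of genes had both libraries 5 and 6 above libraries 7 and 8. *Irx2* and *Irx3* lay on the other side there, with ratios of 0.933 and 0.803, as did 32.5% of genes. *Irx5* in cushion EdCs had a ratio of 1.55, where 24.9% of genes had the same order and 23.2% the opposite one. In mesenchyme *Irx5* had a ratio of 1.48, with 28.2% of genes above and 27% below, and in epithelium *Irx1*, *Irx2*, *Irx3* and *Irx5* had ratios of 3.96, 1.51, 3.23 and 2.95, with 29.5% above and 26.5% below. In all, 9 of the 16 tests had libraries 5 and 6 above libraries 7 and 8, and 2 had them below. Of all genes tested in a cell type, 22.7 to 33.4% were above and 20.8 to 32.5% below. The 9 include *Irx1*, *Irx2*, *Irx3* and *Irx5* in epithelium, where the make-up by clusters differed between the pairs. The order of the library pairs is therefore not read as a result about the members. The shares of thinned cells with *Irx5* or *Irx6* in chamber EdCs and with *Irx4* in ventricular CMs had the same order of the library pairs, so it was present at equal depth per cell. *Crnde*, a non-coding RNA whose start lies 1505 bases from that of *Irx5* on the other strand, did not share it, with levels of 0.162, 0.134, 0.127 and 0.118 in the chamber EdCs of libraries 5, 7, 6 and 8. What else differed between the pairs of libraries includes the foregut tissue described above, and its part in the levels was not tested. Libraries 5 and 6 and libraries 7 and 8 are no batches by the labels, and each pair holds 1 library of each genotype. With the pair of libraries as a covariate, edgeR called 394 genes in chamber EdCs and 124 in ventricular CMs, and no *Irx* gene among them.

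**Figure D5:**
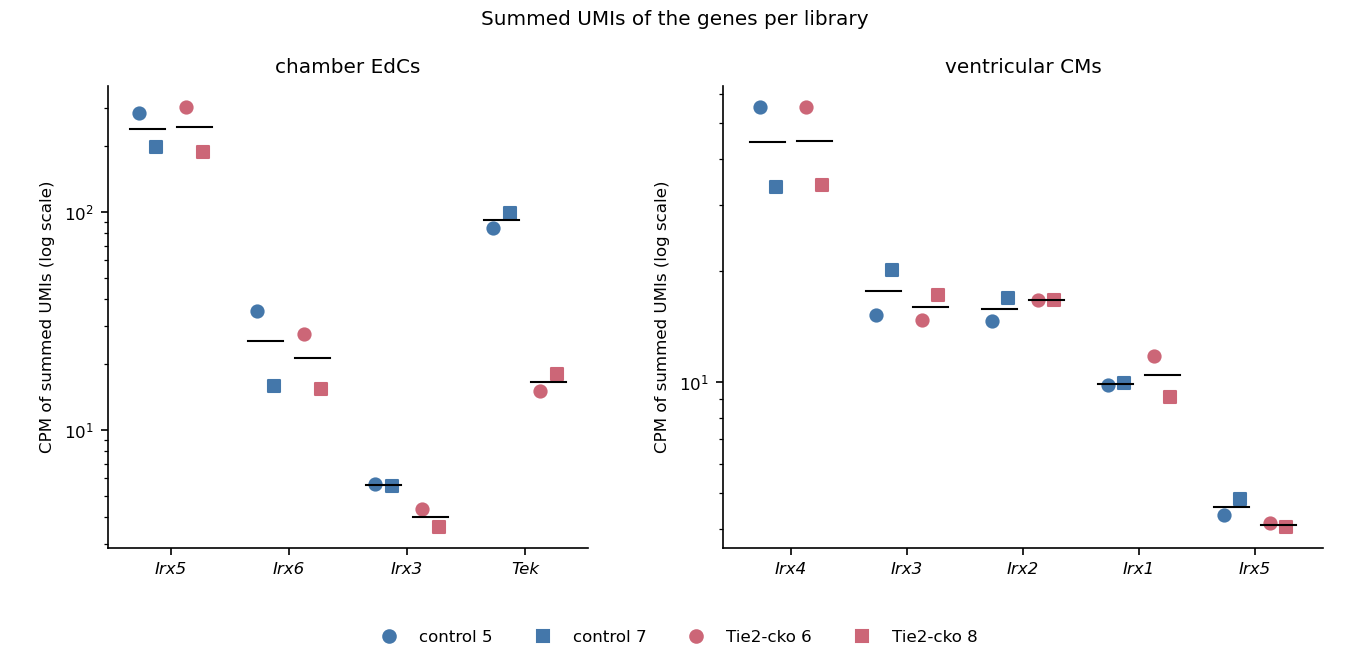
Summed UMIs as CPM (log axis) in chamber EdCs (left) and ventricular CMs (right) for each library, with a line at the mean of each genotype. *Irx5* and *Irx6* on the left and *Irx4* on the right are higher in libraries 5 and 6 (circles) than in libraries 7 and 8 (squares) in both genotypes, while *Tek* separates control (blue) from *Tie2-cko* (red). Libraries 5 and 6 were above libraries 7 and 8 for 22.7% of genes tested in chamber EdCs and 33.4% in ventricular CMs.

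Genes that work with the members or lie beside them were taken from lists. Of 12 other TALE homeobox genes, whose products include partners of homeodomain factors, 10 were tested in chamber EdCs and 0 passed the edgeR test (1 had an unadjusted p under 0.05). Their median log2 fold change was 0.05, against 0.00 over all genes tested. Of 18 genes known as targets, regulators or partners of IRX factors in the heart, 14 were tested there and 0 passed the edgeR test (2 had an unadjusted p under 0.05), with a median of 0.20. The lowest unadjusted p in the first list belonged to *Pknox2* (log2 fold change 1.46 ± 0.47, standard error, at an adjusted p of 0.611 by edgeR). In the second list *Gata6* (0.33, standard error 0.12) and *Hey2* (0.76, standard error 0.29) came first, with adjusted p = 0.677 from edgeR for both. *Gja5*, the connexin 40 gene that IRX3 is known to raise in the conduction system, had an edgeR log2 fold change of -1.25 ± 0.56 (standard error) and an adjusted p of 0.713 at a mean level of 0.0211 in chamber EdCs. In ventricular CMs 11 and 17 genes of these lists were tested with edgeR and 0 passed (0 and 2 had an unadjusted p under 0.05), with medians of 0.04 and 0.03.

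Within 1 Mb of a member lay 73 other genes, of which 19 were tested in chamber EdCs and 0 passed the edgeR test (0 had an unadjusted p under 0.05), with a median log2 fold change of -0.06. Some non-coding neighbours were highest in the same cell type as the member beside them. *Gm20554*, which starts 256 bases from *Irx2*, was highest in the epithelium led by *Wnt7b* (0.130), and *Eprn*, 86905 bases from *Irx4*, was highest in ventricular CMs (0.136). *Irx3os* overlaps *Irx3* on the opposite strand over 1653 bases and reached at most 0.0450 in the epithelium led by *Wnt7b*. Whether the counting used strand is not given in the sources used here, so the UMIs of this pair may be shared. *Crnde*, beside *Irx5*, was highest in the epithelium led by *Wnt7b* (0.329) and stood at 0.135 in chamber EdCs, against 0.0310 to 0.0353 in cushion EdCs.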

How the data were processed

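Single-cell RNA of 4 libraries of E10.5 mouse hearts (2 control, 2 *Tie2-cko*) was profiled with the 10x method. The authors deposited raw UMI counts per gene and barcode, made with Cell Ranger (6.1.2 by the file headers) on mm10, with no normalization. Barcodes with at least 500 genes and 1000 UMIs and at most 10% mitochondrial UMIs were kept. Scrublet (scanpy 1.11.5, Python 3.11.15) then scored doublets, and the 982, 285, 664 and 798 highest-scoring barcodes of libraries 5 to 8 were left out (0.8% for every 1000 barcodes). Cells were clustered in Seurat 5.3.0 (R 4.3.3) on 1992 variable genes, 30 components and resolution 0.8, and the 27 clusters were named from marker lists. Of these, 5 stayed unnamed, and 3 with low UMI numbers (3914 cells) were left out. Levels are UMIs per 10000 averaged over cells, given for types with at least 20 cells in a library. Counts summed per library and type were tested with edgeR 4.0.16 (TMM scaling, filterByExpr, quasi-likelihood test, Benjamini-Hochberg adjustment) at an adjusted p of 0.05, with DESeq2 1.42.0 as an alternative. The test was tested on simulated counts, where it missed part of the changed genes in each cell type and nearly all in epithelium. It also called some unchanged genes there in each cell type. Cells were thinned to 5500 UMIs for shares, which were compared with the exact permutation test. Free RNA was not subtracted.

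The named genes were the 6 members, *Tek*, up to 6 genes of each list with the lowest unadjusted p in chamber EdCs, genes beside the members, and the 3 genes most like each member. The members and lists were chosen with earlier results of these data known. Positions and sequences came from GENCODE M21 on GRCm38. Alternatives were other scalings, filters, resolutions and cell sets, no removal of doublets, the pair of libraries as a covariate, and leaving out each library.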

Additional observations from a re-analysis of the deposited data

Results flagged for a closer look

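A cluster of low-UMI barcodes with chamber EdC markers, left out of the main comparisons, carried *Irx5* at a mean level of 0.882 and *Irx6* at 0.142 UMIs per 10000 over the 4 libraries. It held 559, 403, 350 and 245 barcodes in libraries 5, 7, 6 and 8. *Irx5* stood at 1.10, 0.781, 0.941 and 0.706 in them and *Irx6* at 0.286, 0.116, 0.107 and 0.0610. The *Irx5* levels lay below those of the chamber EdCs and above those of the cushion EdCs of the same libraries. Both genes were singled out because a signal was present in cells outside the main comparisons. With these barcodes added to the chamber EdCs as an alternative, neither gene was called by edgeR.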

How the results depend on the processing

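No *Irx* gene was called between genotypes by edgeR or DESeq2 in any of 220 alternative results. Each is for 1 gene in 1 cell type or comparison under 1 setting, and members of a cell type share a fit. The direction was kept in 190 of these results and reversed in 30. Counts of called genes moved widely, the cause not tested. In chamber EdCs the count of 1 became 17 with DESeq2, 394 with the library pair as a covariate, 169 with no filter on low counts, and 173, 44, 106 and 109 without library 5, 6, 7 or 8. In cushion EdCs the count of 6 became 11, 110 and 42 under the first 3 of these settings, 1 with doublets kept, and 5 to 34 without a library. In epithelium the count of 3 became 7, 73 and 14, 0 with doublets kept, 6 without the lung or foregut clusters (chosen after seeing the data), and 0 to 4 without a library. In mesenchyme the count of 0 became 7, 101 and 23, and 0 to 12 without a library. In ventricular CMs the count of 0 became 1, 124 and 6, and 3 to 55 without a library. For the difference between chamber and cushion EdCs the count of 26 became 111 with no filter and 8 to 71 without a library. Reversed log2 fold changes without the lung or foregut clusters were -0.16 for *Irx2* and -0.68 for *Irx5* in epithelium. In mesenchyme, *Irx4* reversed to 0.081 with doublets kept, 0.36 at resolution 0.4 and 0.069 with the clusters led by *Prrx1* and *Dkk2* (chosen after seeing the data), and *Irx5* to 0.56, 0.67 and 0.72. *Irx4* in ventricular CMs reversed to -0.044 with all CM clusters and -0.0014 at resolution 1.2. Leaving out a library gave ranges of -0.34 to 0.33 (*Irx5*) and -0.72 to 0.42 (*Irx6*) in chamber EdCs, -0.60 to 0.20 (*Irx5*) in cushion EdCs, and -2.06 to 0.020 (*Irx3*) and -1.77 to 0.21 (*Irx6*) for the difference between them. The ranges were -1.23 to 1.41 (*Irx1*), -0.31 to 0.65 (*Irx2*), -0.73 to 1.49 (*Irx3*), -1.08 to 0.95 (*Irx5*) and -3.03 to 0.15 (*Tek*) in epithelium, -0.61 to 0.27 (*Irx5*) in mesenchyme, and -0.11 to 0.25 (*Irx1*), -0.015 to 0.19 (*Irx2*), -0.33 to 0.072 (*Irx3*) and -0.39 to 0.41 (*Irx4*) in ventricular CMs. A genotype left with 1 library was assumed to vary like the other. Without thinning, the differences in shares between genotypes were 4.24 points for *Irx6* in chamber EdCs and 2.41 points for *Irx4* in ventricular CMs (exact permutation p = 1 and 0.667). Levels were recomputed for *Irx5* and *Irx6* in chamber EdCs, *Irx4* and *Irx3* in ventricular CMs and *Irx3* in epicardial cells. With doublets kept or as summed UMIs they moved by less than the spread between libraries. Between the pairs of libraries (chosen after seeing the data), *Irx5* in chamber EdCs ran from 1.74 in 7 and 8 to 2.87 in 5 and 6, *Irx6* from 0.150 to 0.323 and *Irx4* in ventricular CMs from 0.331 to 0.552. Levels of other types were not covered by this, and those of MCs were higher with doublets kept, where more cells were named MC. At resolution 0.4 no cushion EdC cluster formed, so that setting gave no value there. The labels give the groups no shared replicate numbers, so no pairing came from them, and the fit with the library pair as a covariate served as the blocked one.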
